A study of Mus musculus with 24 samples.

Results

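The genes described are 31 genes of cartilage, chosen by name from the 55335 genes counted in every library of cultured primary osteoblasts (OBs): the chondrocyte regulators Sox9, Sox5, Sox6 and Wwp2, the collagen genes Col2a1, Col9a1, Col9a2, Col9a3, Col11a2 and Col10a1, the proteoglycan and link protein genes Acan, Hapln1, Hapln3, Epyc, Chad, Prg4 and Snorc, the matrilins Matn1 to Matn4 with Comp, the small secreted and membrane proteins Ucma, Cnmd, Cytl1, Mia, Scrg1 and Susd5, and the signalling genes Ihh, Fgfr3 and Trpv4. All 31 were found, with 1 entry each, and all 31 passed the filter on low counts in every comparison. OBs were grown from parietal bones of mouse pups aged 4 to 5 days on a C57BL/6J background, either wild type (WT) or heterozygous (Het) for G610C, which puts a cysteine in place of a glycine within the triple helical part of the procollagen chain encoded by Col1a2. Pups of a genotype were pooled before plating, every culture received osteogenic medium with ascorbate, and polyadenylated RNA was sequenced on culture days 8, 14 and 21 (counted from seeding), giving 24 libraries, 4 for each genotype on each day. Wells of a preparation share a pool, so p-values measure the spread between wells, and genotype and pool cannot be told apart within a preparation. The mutation is a base change that counts per gene do not show.

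Chondrocytes build a matrix of type II collagen fibrils, decorated with type IX and stiffened with type XI collagen, around aggrecan bound to hyaluronan through link proteins. Sox9, with its partners Sox5 and Sox6, switches this programme on, and Col10a1 marks the hypertrophic chondrocytes that precede bone at the growth plate. Parietal bones form by direct ossification of a membrane, with cartilage nearby at their lower border and at the skull base, and OB precursors share Sox9 with chondrocytes.

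Levels are given as RQ, the count of a gene per 1000 counts of the geometric mean of 4 housekeeping genes (Sdha, Mrfap1, Actb and Actg1) of that library, which is the ratio used by the study multiplied by 1000. Totals were 17140202 to 59734231 counts per library. The 6 libraries numbered replicate 1 were shallower (17140202 to 25825762 counts) than the 18 of replicates 2 to 4 (28159342 to 59734231), and their files are named in another style. The study used a pair of experiments with different litters, plating density and oxygen, and the labels do not say which replicates belong to which. Its methods give 1 well per genotype and day in the first and 2 in the second, fewer than the 4 libraries here. Whether replicates 2 to 4 come from 1 preparation is therefore not known. Because replicate 1 stood apart for the cartilage genes, every comparison of genotypes is given over all libraries, with the replicate number as a block, and within replicates 2 to 4. The split was made with these values known, and it leaves out the libraries with little difference between genotypes. The p-values within replicates 2 to 4 are thus descriptive and no independent test of a Het effect. Replicate 1 holds 1 library per genotype and day, and its values have no replicate check.

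The OB markers Col1a1, Runx2, Sp7, Ibsp, Bglap, Dmp1, Alpl and Ifitm5 had counts in all 24 libraries. Col1a1 had an RQ of 16660 to 168415, and Bglap of 0.405 to 1110. Presence alone does not identify a cell type, as every macrophage and smooth muscle marker listed below also had counts in all 24. The 6 genes set as defining markers of chondrocytes were counted in all 24 libraries too, with a range of 945 to 30250 RQ for Col2a1 and of 0.159 to 112 for Snorc. Together the 31 genes took 0.222% to 2.43% of all counts of a library. Bulk RNA does not show which cells made these transcripts, chondrocytes or others such as OBs and their precursors. Fewer expressing cells and less RNA per cell cannot be told apart either.

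Promoter sequence was available for 23 of the 31 genes, with 32 windows in all (RefSeq, GRCm38.p6). Sox9, Col2a1, Col9a3, Prg4, Snorc, Matn2, Comp and Scrg1 had none. Windows of the 250 bases before the RefSeq start were searched on both strands for ACAAAG and ACAATG, a pair of hexamers bound by SOX proteins. A window that held both was counted once. Either hexamer was present in 9 of the 32 member windows (28.1%), against 25.2% of the 32851 windows of all genes, and 5 of the 9 were alternative starts of Sox6. Counted by gene, 4 of 23 members had a match (17.4%: Sox5, Sox6, Col10a1 and Epyc), against 28.2% of 27025 genes. Windows of Acan, Col9a1, Matn1 and Col10a1 are shown because Matn1, Col10a1 and Col9a1 had the lowest Het to WT ratios among the genes with a window within replicates 2 to 4 at days 14 and 21, though not over all replicates, and Acan is the reference for the patterns described last. Capitals mark a hexamer match.
Acan, chr7:79052976-79053225, + strand: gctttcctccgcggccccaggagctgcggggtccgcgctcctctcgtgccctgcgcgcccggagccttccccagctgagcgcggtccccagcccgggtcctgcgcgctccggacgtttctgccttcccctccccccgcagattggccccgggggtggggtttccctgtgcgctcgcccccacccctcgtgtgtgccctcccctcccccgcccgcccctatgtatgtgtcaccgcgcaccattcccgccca
Col9a1, chr1:24177360-24177609, + strand: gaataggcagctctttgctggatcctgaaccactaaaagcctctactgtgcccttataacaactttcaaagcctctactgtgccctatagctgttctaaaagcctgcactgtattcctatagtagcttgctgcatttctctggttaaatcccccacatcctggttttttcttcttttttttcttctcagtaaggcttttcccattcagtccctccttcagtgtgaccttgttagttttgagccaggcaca
Matn1, chr4:130944135-130944384, + strand: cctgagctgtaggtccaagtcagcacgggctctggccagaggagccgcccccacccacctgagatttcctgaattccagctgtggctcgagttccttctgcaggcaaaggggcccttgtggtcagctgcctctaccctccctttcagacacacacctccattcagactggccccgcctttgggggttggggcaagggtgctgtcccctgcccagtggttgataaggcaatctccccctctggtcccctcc
Col10a1, chr10:34389731-34389980, + strand: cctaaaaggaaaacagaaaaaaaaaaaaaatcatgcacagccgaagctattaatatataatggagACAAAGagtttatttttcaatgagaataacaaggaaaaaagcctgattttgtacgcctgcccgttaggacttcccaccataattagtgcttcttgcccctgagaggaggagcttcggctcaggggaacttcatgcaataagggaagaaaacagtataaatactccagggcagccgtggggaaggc
Col10a1 holds the only match of the 4, ACAAAG, which begins 185 bases before the start. The windows of Acan, Col9a1 and Matn1 hold neither hexamer on either strand, while their GC content ranges from 43.6% (Col9a1) to 74.4% (Acan).

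Per kilobase of exon, the most abundant cartilage transcript of WT cultures at day 8 was Col2a1, the chain of the main cartilage fibril, at an RQ of 2349.8 per kb. Cnmd, a membrane protein of avascular cartilage, followed at 576 per kb, and the type IX chain Col9a3, Comp and Col9a1 came next at 397, 348 and 343 per kb. Over days 14 and 21 in WT, Comp, a matrix protein of cartilage, tendon and ligament, was the highest at 868 per kb, ahead of Col2a1 at 744 and Col11a2 at 535 per kb. Matn3, a cartilage matrilin, was the lowest of the 31 over those days at 1.23 per kb, and Ihh, the hedgehog ligand of prehypertrophic chondrocytes, was the lowest at day 8 at 1.54 per kb. These are mean levels of 4 (day 8) or 8 (days 14 and 21) libraries, and neighbours in the order were not tested against each other.

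**Figure D1:**
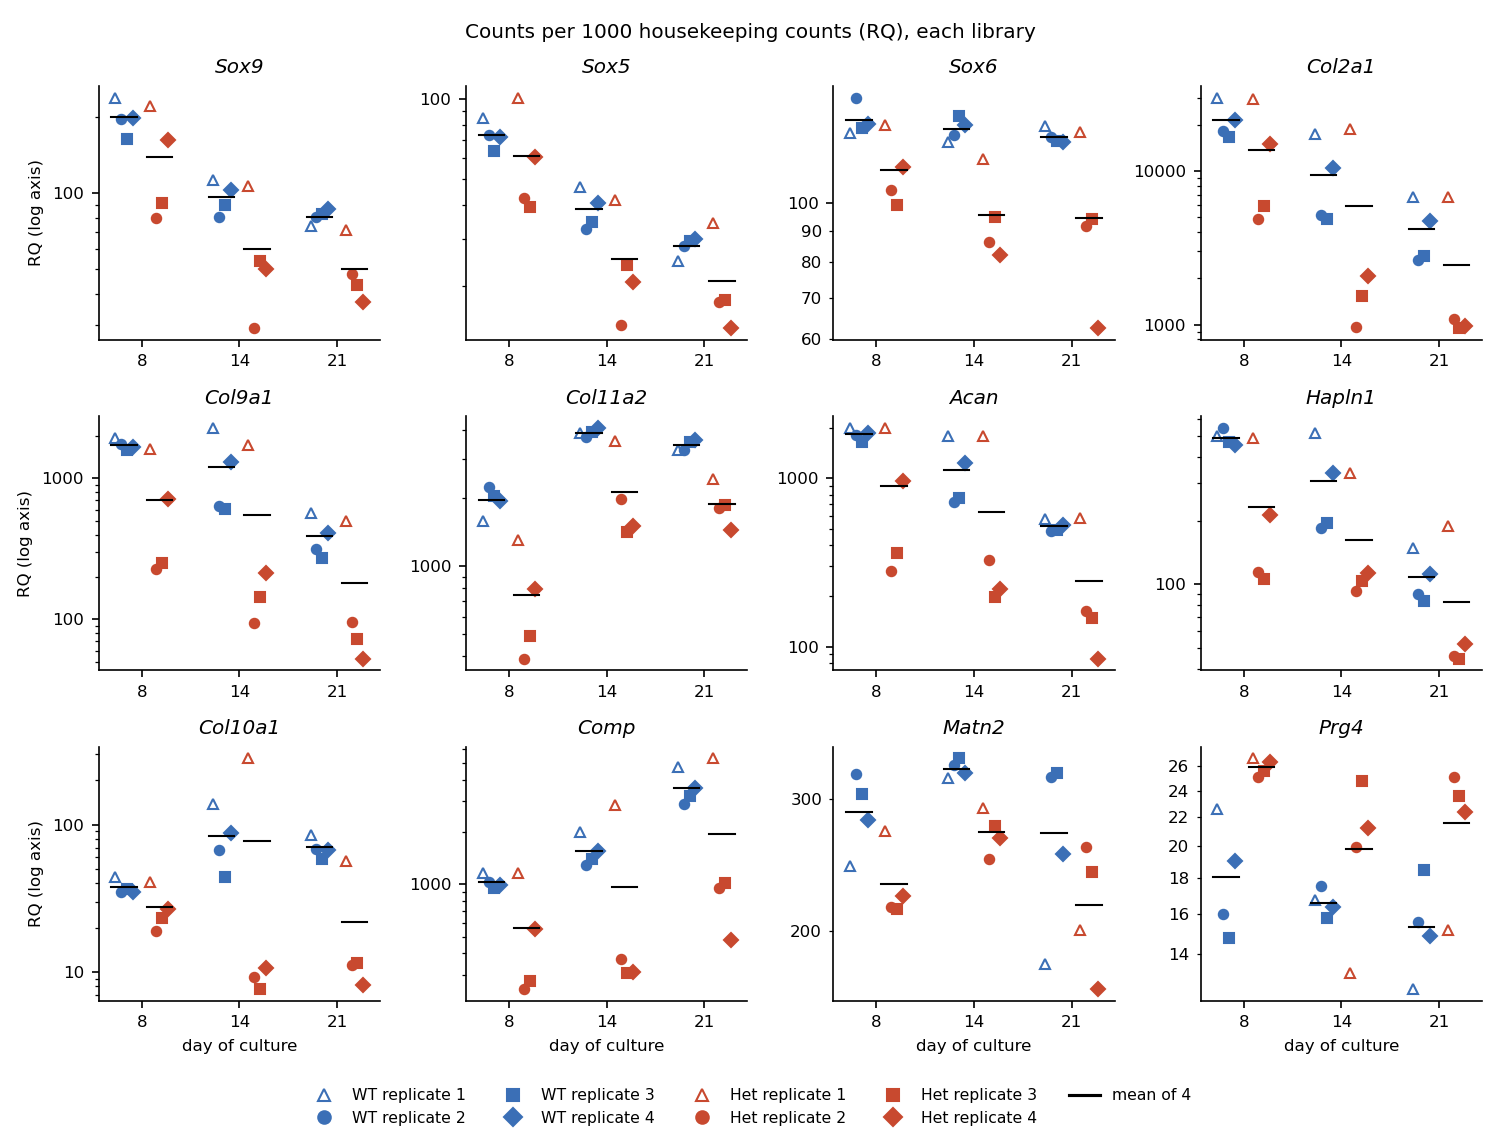
RQ (counts per 1000 housekeeping counts, log axis) of 12 cartilage genes by day of culture, with WT in blue, Het in red, replicate 1 as open triangles and the mean of the 4 libraries of a group as a black line. Het replicate 1 lies near or among the WT libraries for Col2a1 and Acan and above them for Comp, while for these genes Het replicates 2 to 4 lie below WT at every day, for example at 957 to 2078 RQ for Col2a1 at day 14 against 4856 to 17571 in WT.

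At days 14 and 21 the cartilage genes were mostly lower in Het than in WT cultures. Over all 16 libraries, 29 of 31 had a lower fitted level in Het, with a median log2 difference of −0.67 against −0.048 for all genes tested, yet only 5 passed the test: Sox9, Sox6, Col11a2, Hapln3 and Susd5, all lower (edgeR quasi-likelihood test, Benjamini-Hochberg adjusted p under 0.05). No member was called higher; TMM scaling called 6 lower and 1 higher. Among all 19839 genes tested, 7.19% were called higher and 8.75% lower. With the replicate number as a block, 23 members were called lower and 1 higher (9.29% of all genes higher and 14.1% lower). Within replicates 2 to 4 the calls were 26 lower and 1 higher, against 17.1% of all genes higher and 22.1% lower. These shares of all genes also apply to the counts by kind of gene below, where calls within replicates 2 to 4 remain descriptive. A few libraries set the count over all libraries: it was 15 without Het replicate 1 of day 14, 10 without Het replicate 1 of day 21, and 0 when all libraries of replicate 2, of replicate 3 or of replicate 4 were left out. The shares of all genes called under TMM and in these leave-outs are not given here.

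Replicate 1 and replicates 2 to 4 differed in what Het cultures showed. The mean RQ in Het divided by that in WT at days 14 and 21 had a median over the 31 genes of 0.427 in replicates 2 to 4, and 0.984 in replicate 1. In replicates 2 to 4, 29 genes were lower in Het and 2 were higher, and for 19 genes all 6 Het libraries lay below all 6 WT libraries (above them for 1, Prg4), as they did for 8.77% of the 18346 genes whose mean count reached 10. On single days, Het replicates 2 to 4 all lay below WT replicates 2 to 4 for 29, 26 and 23 members at days 8, 14 and 21. The same held for 30.9%, 23.0% and 27.1% of the 18346 genes, so such separation on a single day is common. In replicate 1, 17 genes were lower and 14 higher. Replicates 2 and 3 had a median ratio of 0.472 and replicate 4 of 0.384 at days 14 and 21. Both subsets lie within the split made with these values known, so their low ratios are no independent check. Replicate 4 has 1 library per genotype and day.

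**Figure D2:**
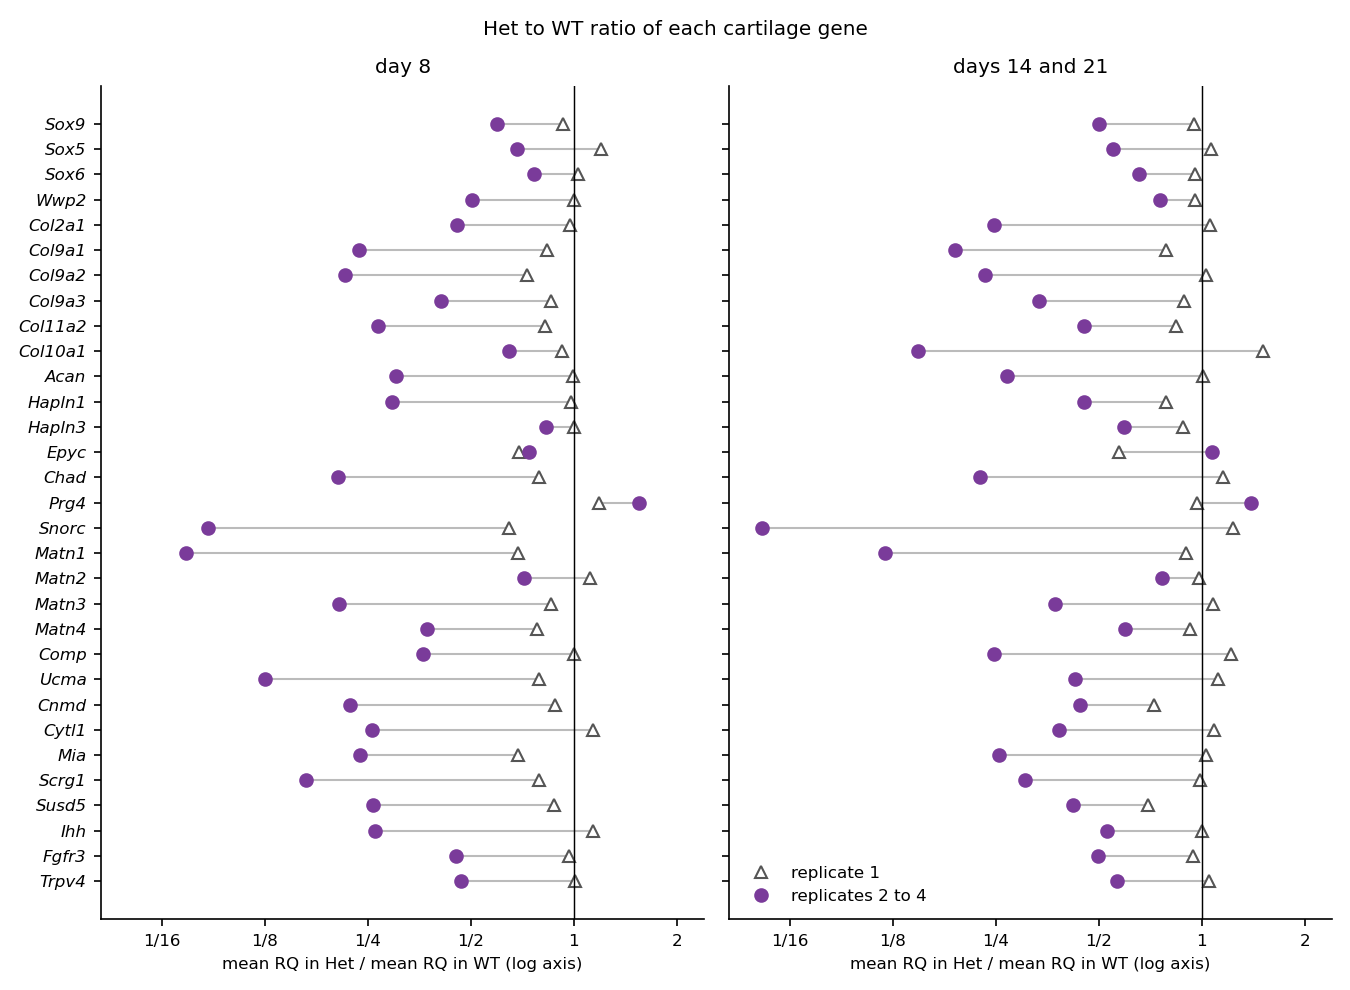
Mean RQ in Het divided by mean RQ in WT for each of the 31 genes (log axis), at day 8 on the left and at days 14 and 21 on the right, with replicate 1 as open triangles and replicates 2 to 4 as filled circles. At days 14 and 21 the circles lie below 1 for 29 genes, down to 0.0521 for Snorc, while the triangles scatter around 1, from 0.573 for Epyc to 1.51 for Col10a1.

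Of the 4 regulators of the chondrocyte programme, 2 were called lower in Het at days 14 and 21 over all libraries, and 4 within replicates 2 to 4 (8.75% and 22.1% of all genes). Sox9, the transcription factor that chondrocytes depend on (chr11:112782224-112787760, GRCm38), was among those called. At day 8, Sox9 had an RQ of 239.7, 197, 164 and 199 in WT replicates 1 to 4 and of 222, 79.8, 92.0 and 163 in Het replicates 1 to 4. Sox9 at day 14 read 113, 80.4, 90.3 and 103 in the WT replicates and 107, 29.2, 54.2 and 50.2 in the Het replicates. By day 21, Sox9 stood at 74.3, 80.3, 82.5 and 86.5 in WT and at 71.6, 47.9, 43.3 and 37.2 in Het. Het replicate 1 was close to WT replicate 1 at all 3 days, and the other Het libraries were below every WT library of the same day. Fitted over both late days, Sox9 differed between Het and WT on the log2 scale by −0.70 ± 0.20 (SE, n = 8 per genotype, adjusted p = 0.0286), −0.77 ± 0.16 with the replicate block (adjusted p = 0.00613) and −0.99 ± 0.13 within replicates 2 to 4 (n = 6 per genotype, adjusted p = 0.000105).

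Sox5 and Sox6 encode the partners of Sox9 on cartilage enhancers. Sox5 lies at chr6:143828425-144781977 and shares 1330 exonic bases with Sox5os1 on the other strand. At day 8, Sox5 had an RQ of 84.4, 73.3, 63.8 and 71.9 in WT replicates 1 to 4 and of 101, 42.7, 39.5 and 60.6 in Het replicates 1 to 4. Sox5 at day 14 read 46.8, 32.5, 34.6 and 40.8 in the WT replicates and 41.8, 14.3, 23.9 and 20.6 in the Het replicates. By day 21, Sox5 stood at 24.7, 28.1, 29.5 and 30.0 in WT and at 34.3, 17.4, 17.8 and 13.9 in Het. Het replicate 1 was the highest library of days 8 and 21, and Het replicates 2 to 4 were below all 4 WT libraries at each day. Sox5 had a log2 difference between Het and WT at days 14 and 21 of −0.54 ± 0.20 (SE, n = 8 per genotype, adjusted p = 0.0799), −0.62 ± 0.15 with the replicate block (adjusted p = 0.0118) and −0.85 ± 0.11 within replicates 2 to 4 (n = 6 per genotype, adjusted p = 4.79e-05).

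Sox6 lies at chr7:115470872-116038796. At day 8, Sox6 had an RQ of 130.1, 149, 133 and 135 in WT replicates 1 to 4 and of 134, 105, 99.1 and 114 in Het replicates 1 to 4. Sox6 at day 14 read 126, 129, 139 and 134 in the WT replicates and 118, 86.2, 95.0 and 82.1 in the Het replicates. By day 21, Sox6 stood at 133, 128, 126 and 126 in WT and at 130.3, 91.8, 94.0 and 62.4 in Het. WT libraries stayed between 126 and 149 throughout, Het replicate 1 lay at 118 to 134, and Het replicates 2 to 4 lay at 62.4 to 114. The Het minus WT log2 difference of Sox6 at days 14 and 21 was −0.46 ± 0.11 (SE, n = 8 per genotype, adjusted p = 0.0122), −0.48 ± 0.091 with the replicate block (adjusted p = 0.00308) and −0.61 ± 0.082 within replicates 2 to 4 (n = 6 per genotype, adjusted p = 8.7e-05). Wwp2 ran at 223 to 286 in WT and at 160.3 to 209 in Het in replicates 2 to 4 of days 14 and 21, and at 333 to 435 and 353 to 383 in replicate 1. Wwp2, a ubiquitin ligase gene that hosts the cartilage microRNA Mir140 and overlaps it by 70 exonic bases, was not called over all libraries (−0.29 ± 0.20, adjusted p = 0.366), but was called lower with the block (−0.32 ± 0.081, adjusted p = 0.0124).

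Among the collagen genes, only Col11a2 was called over all libraries, and all 6 were called lower with the block and within replicates 2 to 4 (14.1% and 22.1% of all genes). Col2a1 encodes the chain of type II collagen (chr15:97975602-98004695). At day 8, Col2a1 had an RQ of 30250.1, 18399.9, 16727 and 21502 in WT replicates 1 to 4 and of 29449, 4901, 5899 and 15034 in Het replicates 1 to 4. Col2a1 at day 14 read 17571, 5189, 4856 and 10449.6 in the WT replicates and 18979, 957, 1545 and 2078 in the Het replicates. By day 21, Col2a1 stood at 6806, 2622, 2782 and 4713 in WT and at 6805, 1082, 945 and 982 in Het. The replicate 1 pair differed little at any day, whereas Het replicates 2 to 4 were below all 4 WT libraries of the same day. Within WT, replicate 1 also exceeded replicates 2 to 4 at every day. Fitted over both late days, Col2a1 differed between Het and WT on the log2 scale by −0.74 ± 0.63 (SE, n = 8 per genotype, adjusted p = 0.465), −1.42 ± 0.30 with the replicate block (adjusted p = 0.0069) and −1.96 ± 0.26 within replicates 2 to 4 (n = 6 per genotype, adjusted p = 0.000167).

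Col9a1 encodes a chain of type IX collagen on the surface of the fibrils (chr1:24177610-24252684). At day 8, Col9a1 had an RQ of 1926, 1754, 1598 and 1676 in WT replicates 1 to 4 and of 1606, 227, 252 and 709 in Het replicates 1 to 4. Col9a1 at day 14 read 2279, 634, 604 and 1298 in the WT replicates and 1735, 94.4, 144 and 213 in the Het replicates. By day 21, Col9a1 stood at 564, 316, 273 and 409.7 in WT and at 498, 96.1, 72.9 and 52.6 in Het. Het replicates 2 to 4 lay below every WT library of the same day. Col9a1 had a log2 difference between Het and WT at days 14 and 21 of −1.14 ± 0.63 (SE, n = 8 per genotype, adjusted p = 0.233), −1.80 ± 0.33 with the replicate block (adjusted p = 0.00374) and −2.33 ± 0.27 within replicates 2 to 4 (n = 6 per genotype, adjusted p = 9.74e-05). The other chains of type IX collagen went the same way, with Het to WT ratios in replicates 2 to 4 of 0.232 for Col9a2 and 0.336 for Col9a3, against 1.03 and 0.885 in replicate 1. Col9a3 shares 234 exonic bases with Tcfl5 on the other strand. Col9a2 ran at 173 to 807 in WT and at 33.3 to 162 in Het in replicates 2 to 4 of days 14 and 21, and at 199 to 1405 and 315 to 1339.5 in replicate 1. Col9a3 ran at 212 to 1015 in WT and at 97.3 to 268 in Het in replicates 2 to 4 of days 14 and 21, and at 393 to 1795 and 518 to 1418 in replicate 1.

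Col11a2 encodes a chain of type XI collagen, which sets the diameter of cartilage fibrils (chr17:34039437-34066685). At day 8, Col11a2 had an RQ of 1595, 2255, 2057 and 1955 in WT replicates 1 to 4 and of 1312, 390.1, 491 and 796 in Het replicates 1 to 4. Col11a2 at day 14 read 3880.5, 3761, 3925 and 4104 in the WT replicates and 3583, 1995, 1425 and 1510.0 in the Het replicates. By day 21, Col11a2 stood at 3279, 3293, 3567 and 3620.2 in WT and at 2448, 1818, 1863 and 1456 in Het. It was the only collagen member whose Het replicate 1 lay below all 4 WT libraries at each day. The Het minus WT log2 difference of Col11a2 at days 14 and 21 was −0.87 ± 0.16 (SE, n = 8 per genotype, adjusted p = 0.00331), −0.93 ± 0.14 with the replicate block (adjusted p = 0.000784) and −1.14 ± 0.092 within replicates 2 to 4 (n = 6 per genotype, adjusted p = 1.21e-06). The ratio was 0.842 in replicate 1 and 0.452 in replicates 2 to 4.

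Col10a1, the hypertrophic collagen (chr10:34389981-34397085), shares 18 exonic bases with Nt5dc1 on the other strand. At day 8, Col10a1 had an RQ of 44.2, 35.2, 36.4 and 34.9 in WT replicates 1 to 4 and of 40.9, 18.9, 23.2 and 26.7 in Het replicates 1 to 4. Col10a1 at day 14 read 139, 67.4, 44.3 and 87.5 in the WT replicates and 282, 9.31, 7.66 and 10.6 in the Het replicates. By day 21, Col10a1 stood at 85.3, 69.0, 58.8 and 67.3 in WT and at 56.5, 11.2, 11.6 and 8.17 in Het. At day 14, Het replicate 1 was the highest library of the day while Het replicates 2 to 4 were the lowest, and at day 21 Het replicates 2 to 4 were again below all others. Fitted over both late days, Col10a1 differed between Het and WT on the log2 scale by −0.94 ± 0.75 (SE, n = 8 per genotype, adjusted p = 0.426), −1.94 ± 0.51 with the replicate block (adjusted p = 0.018) and −2.75 ± 0.17 within replicates 2 to 4 (n = 6 per genotype, adjusted p = 8e-07).

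Of the 7 proteoglycan and link protein genes, Hapln3 alone was called over all libraries, and within replicates 2 to 4 Acan, Hapln1, Hapln3, Chad and Snorc were called lower and Prg4 higher. Acan encodes aggrecan, the proteoglycan that gives cartilage its swelling pressure (chr7:79053483-79115099). At day 8, Acan had an RQ of 1989, 1810.4, 1652 and 1862 in WT replicates 1 to 4 and of 1976, 281, 362 and 964 in Het replicates 1 to 4. Acan at day 14 read 1773, 728, 759 and 1230.0 in the WT replicates and 1776, 328, 197 and 220.5 in the Het replicates. By day 21, Acan stood at 572, 484, 496 and 528 in WT and at 584, 162, 148 and 84.9 in Het. The replicate 1 pair was nearly equal at each day, with Het to WT ratios of 0.994, 1.00 and 1.02, and in replicates 2 to 4 the ratios were 0.302, 0.275 and 0.262. Acan had a log2 difference between Het and WT at days 14 and 21 of −0.96 ± 0.48 (SE, n = 8 per genotype, adjusted p = 0.19), −1.45 ± 0.31 with the replicate block (adjusted p = 0.00719) and −1.90 ± 0.19 within replicates 2 to 4 (n = 6 per genotype, adjusted p = 3.42e-05).

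Hapln1 encodes the link protein that fixes aggrecan to hyaluronan (chr13:89539796-89611652). At day 8, Hapln1 had an RQ of 500.3, 547, 468 and 454 in WT replicates 1 to 4 and of 492, 114, 106 and 213 in Het replicates 1 to 4. Hapln1 at day 14 read 519, 185, 195 and 336 in the WT replicates and 337, 92.8, 104 and 114 in the Het replicates. By day 21, Hapln1 stood at 149, 90.3, 83.3 and 111 in WT and at 188, 46.0, 44.6 and 52.3 in Het. Each replicate of each genotype was lower at day 21 than at day 8, and Het replicates 2 to 4 were the lowest libraries of each day. The Het minus WT log2 difference of Hapln1 at days 14 and 21 was −0.68 ± 0.38 (SE, n = 8 per genotype, adjusted p = 0.244), −0.85 ± 0.15 with the replicate block (adjusted p = 0.0025) and −1.10 ± 0.15 within replicates 2 to 4 (n = 6 per genotype, adjusted p = 0.000166).

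Hapln3, a related link protein gene (chr7:79115102-79131018), ends 2 bases from the end of Acan on the other strand and had low levels. At day 8, Hapln3 had an RQ of 7.12, 4.71, 5.69 and 5.59 in WT replicates 1 to 4 and of 7.12, 3.61, 4.01 and 5.65 in Het replicates 1 to 4. Hapln3 at day 14 read 9.68, 8.79, 8.33 and 9.42 in the WT replicates and 8.61, 5.14, 4.49 and 5.18 in the Het replicates. By day 21, Hapln3 stood at 10.02, 5.96, 5.87 and 8.04 in WT and at 8.71, 4.40, 4.85 and 3.40 in Het. Its Het replicates 2 to 4 were below every WT library at days 14 and 21, and the genotypes overlapped at day 8. Fitted over both late days, Hapln3 differed between Het and WT on the log2 scale by −0.57 ± 0.18 (SE, n = 8 per genotype, adjusted p = 0.0451), −0.62 ± 0.12 with the replicate block (adjusted p = 0.00418) and −0.75 ± 0.11 within replicates 2 to 4 (n = 6 per genotype, adjusted p = 0.000146).

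Prg4, lubricin, the lubricant of joint surfaces (chr1:150449412-150466165), went the other way. At day 8, Prg4 had an RQ of 22.6, 15.96, 14.8 and 19.0 in WT replicates 1 to 4 and of 26.7, 25.1, 25.6 and 26.4 in Het replicates 1 to 4. Prg4 at day 14 read 16.7, 17.5, 15.8 and 16.4 in the WT replicates and 13.1, 19.96, 24.7 and 21.2 in the Het replicates. By day 21, Prg4 stood at 12.5, 15.6, 18.5 and 14.9 in WT and at 15.1, 25.1, 23.6 and 22.3 in Het. Het replicates 2 to 4 exceeded all 4 WT libraries at each day, and Het replicate 1 did so only at day 8. Prg4 had a log2 difference between Het and WT at days 14 and 21 of 0.38 ± 0.13 (SE, n = 8 per genotype, adjusted p = 0.0525), 0.36 ± 0.095 with the replicate block (adjusted p = 0.015) and 0.48 ± 0.073 within replicates 2 to 4 (n = 6 per genotype, adjusted p = 0.000187). Prg4 shares 204 exonic bases with Tpr on the other strand, and Tpr had 187941 counts over the 24 libraries against 10507 for Prg4. Snorc ran at 2.70 to 35.0 in WT and at 0.159 to 1.53 in Het in replicates 2 to 4 of days 14 and 21, and at 30.9 to 85.1 and 30.5 to 112 in replicate 1. Snorc, a chondrocyte membrane proteoglycan, had the lowest ratio of the 31 in replicates 2 to 4, 0.0521, against 1.23 in replicate 1. Chad ran at 18.6 to 73.9 in WT and at 2.70 to 18.3 in Het in replicates 2 to 4 of days 14 and 21, and at 31.2 to 106 and 73.8 to 84.1 in replicate 1. Chad, chondroadherin, had a ratio of 0.226 in replicates 2 to 4 and of 1.15 in replicate 1. Epyc ran at 27.6 to 73.3 in WT and at 23.5 to 86.9 in Het in replicates 2 to 4 of days 14 and 21, and at 32.0 to 96.6 and 26.2 to 47.4 in replicate 1. Epyc, epiphycan, which shares 1041 exonic bases with Gm10754 on the other strand, was not called in any of the 3 fits at days 14 and 21 (adjusted p = 0.982, 0.946 and 0.64).

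None of the matrilins, nor Comp, was called over all libraries at days 14 and 21. Within replicates 2 to 4, Matn1, Matn2, Matn3 and Comp were called lower. Comp (chr8:70373558-70382066) was higher in WT at each later day, without overlap between days, and was the most abundant member per kb late in culture. At day 8, Comp had an RQ of 1154, 1031, 952 and 994 in WT replicates 1 to 4 and of 1154, 249.5, 278 and 552 in Het replicates 1 to 4. Comp at day 14 read 2001, 1282, 1400.4 and 1561 in the WT replicates and 2847, 374, 309 and 315 in the Het replicates. By day 21, Comp stood at 4693, 2887, 3219.9 and 3563 in WT and at 5291, 955, 1014 and 480.3 in Het. Het replicate 1 had the highest level and Het replicates 2 to 4 the lowest at all 3 days. The Het minus WT log2 difference of Comp at days 14 and 21 was −0.80 ± 0.54 (SE, n = 8 per genotype, adjusted p = 0.335), −1.49 ± 0.34 with the replicate block (adjusted p = 0.0096) and −2.04 ± 0.16 within replicates 2 to 4 (n = 6 per genotype, adjusted p = 2.82e-06).

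Matn2, the matrilin of connective tissue beyond cartilage (chr15:34306677-34436273), shares 70 exonic bases with 9430069I07Rik on the other strand. At day 8, Matn2 had an RQ of 244, 324, 305 and 281 in WT replicates 1 to 4 and of 272, 215, 214 and 223 in Het replicates 1 to 4. Matn2 at day 14 read 320.2, 334, 340.5 and 325 in the WT replicates and 292, 249, 276 and 266 in the Het replicates. By day 21, Matn2 stood at 181, 322, 326 and 254 in WT and at 200.5, 259, 239.8 and 167 in Het. Het replicates 2 to 4 were below all 4 WT libraries at days 8 and 14, and the groups overlapped at day 21, where Het replicate 4 and WT replicate 1 were the lowest libraries. Fitted over both late days, Matn2 differed between Het and WT on the log2 scale by −0.30 ± 0.11 (SE, n = 8 per genotype, adjusted p = 0.0674), −0.30 ± 0.096 with the replicate block (adjusted p = 0.0386) and −0.39 ± 0.095 within replicates 2 to 4 (n = 6 per genotype, adjusted p = 0.00623). Matn1 ran at 1.84 to 157 in WT and at 0.596 to 16.2 in Het in replicates 2 to 4 of days 14 and 21, and at 12.1 to 427 and 28.9 to 367 in replicate 1. Matn1, restricted to cartilage, had ratios of 0.119 in replicates 2 to 4 and 0.902 in replicate 1, and its log2 difference over all libraries was −0.35 ± 1.14 (adjusted p = 0.888). Matn3 ran at 0.635 to 6.65 in WT and at 0.596 to 1.35 in Het in replicates 2 to 4 of days 14 and 21, and at 2.17 to 13.4 and 4.85 to 12.01 in replicate 1. Matn3 was called lower within replicates 2 to 4 and in neither other fit. Matn4 ran at 886 to 1975 in WT and at 342 to 1237 in Het in replicates 2 to 4 of days 14 and 21, and at 549 to 2530.2 and 604 to 2237 in replicate 1. Matn4, which shares 149 exonic bases with Rbpjl on the other strand, was not called in any of the 3 fits (adjusted p = 0.257, 0.238 and 0.0984).

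Among the small secreted and membrane proteins, Susd5, a hyaluronan-binding membrane protein gene (chr9:114057140-114098728), was called lower over all libraries. At day 8, Susd5 had an RQ of 120.2, 98.8, 92.5 and 97.4 in WT replicates 1 to 4 and of 105, 12.8, 15.97 and 46.3 in Het replicates 1 to 4. Susd5 at day 14 read 219, 176, 176 and 195 in the WT replicates and 171, 120.2, 59.7 and 69.4 in the Het replicates. By day 21, Susd5 stood at 299.9, 184, 185 and 234 in WT and at 192, 80.2, 89.8 and 64.6 in Het. Every Het replicate 2 to 4 lay below every WT library of its day, and Het replicate 1 was below all 4 WT libraries only at day 14. Susd5 had a log2 difference between Het and WT at days 14 and 21 of −0.98 ± 0.24 (SE, n = 8 per genotype, adjusted p = 0.0149), −1.08 ± 0.16 with the replicate block (adjusted p = 0.000946) and −1.26 ± 0.16 within replicates 2 to 4 (n = 6 per genotype, adjusted p = 0.000135). Mia ran at 62.6 to 129 in WT and at 9.76 to 41.4 in Het in replicates 2 to 4 of days 14 and 21, and at 86.7 to 206 and 86.7 to 214 in replicate 1. Mia, a secreted protein of cartilage and melanoma, was called lower with the block (−1.48 ± 0.34, adjusted p = 0.0102). It shares 410 exonic bases with Gm21983 on the same strand, so its reads are not fully its own. Cytl1 ran at 0.367 to 4.69 in WT and at 0.159 to 2.25 in Het in replicates 2 to 4 of days 14 and 21, and at 1.51 to 12.7 and 5.74 to 9.63 in replicate 1. Scrg1 ran at 0.0817 to 2.63 in WT and at 0.0794 to 0.450 in Het in replicates 2 to 4 of days 14 and 21, and at 0.378 to 8.13 and 3.07 to 5.33 in replicate 1. Cytl1, a secreted protein of cartilage, and Scrg1 were called only within replicates 2 to 4 (adjusted p = 0.0409 and 0.0173), and Ucma, a growth plate protein, and Cnmd in none of the 3 fits. Ucma ran at 0.529 to 15.4 in WT and at 0.518 to 6.71 in Het in replicates 2 to 4 of days 14 and 21, and at 1.51 to 37.2 and 10.8 to 32.4 in replicate 1. Cnmd ran at 159 to 695 in WT and at 41.4 to 309.8 in Het in replicates 2 to 4 of days 14 and 21, and at 184 to 1522 and 282 to 958 in replicate 1. Within replicates 2 to 4, all Het libraries of Cnmd lay below the WT libraries of the same day at days 8, 14 and 21, while those of Ucma did so at day 8 and overlapped WT at days 14 and 21. Single-day separation in this direction was seen for 30.9%, 23.0% and 27.1% of the 18346 genes at days 8, 14 and 21.

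The signalling genes were not called over all libraries, and all 3 were called lower with the block (14.1% of all genes). Fgfr3, the receptor that restrains growth plate chondrocytes (chr5:33721674-33737068), shares 998 exonic bases with G630022F23Rik on the other strand. At day 8, Fgfr3 had an RQ of 427, 467, 392 and 417 in WT replicates 1 to 4 and of 414, 160.2, 176 and 244 in Het replicates 1 to 4. Fgfr3 at day 14 read 485, 331, 341 and 391 in the WT replicates and 443, 216, 162 and 159 in the Het replicates. By day 21, Fgfr3 stood at 327, 279, 298 and 289 in WT and at 320.4, 157, 153 and 113 in Het. Het replicate 1 lay within the range of WT, and Het replicates 2 to 4 lay below it at each day. The Het minus WT log2 difference of Fgfr3 at days 14 and 21 was −0.67 ± 0.23 (SE, n = 8 per genotype, adjusted p = 0.0567), −0.79 ± 0.14 with the replicate block (adjusted p = 0.0022) and −1.01 ± 0.092 within replicates 2 to 4 (n = 6 per genotype, adjusted p = 5.56e-06). Ihh ran at 27.6 to 35.8 in WT and at 6.32 to 24.2 in Het in replicates 2 to 4 of days 14 and 21, and at 31.6 to 33.6 and 25.6 to 39.8 in replicate 1. Trpv4 ran at 54.5 to 93.2 in WT and at 31.6 to 42.6 in Het in replicates 2 to 4 of days 14 and 21, and at 76.8 to 137 and 91.1 to 133 in replicate 1. Ihh differed by −0.75 ± 0.19 with the block (adjusted p = 0.0158) and Trpv4, a calcium channel that responds to load, by −0.58 ± 0.16 (adjusted p = 0.0213).

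The difference between the Het effects of replicate 1 and of replicates 2 to 4 at days 14 and 21 was then tested itself, a comparison chosen after the values had been seen. It was called for 11 of the 31 genes, all in the direction of a higher Het level in replicate 1: Sox5, Col2a1, Col9a1, Col11a2, Col10a1, Acan, Chad, Snorc, Comp, Mia and Fgfr3. Among all genes tested, 1.9% were called in that direction and 2.58% in the other. The log2 difference of effects was 2.38 ± 0.29 for Comp (adjusted p = 0.00172), 3.26 ± 0.59 for Col10a1 (adjusted p = 0.0119) and 1.91 ± 0.40 for Acan (adjusted p = 0.0192). Replicate 1 gives 2 libraries per genotype to this test, 1 at each day, and the count was 12, 5 and 4 without replicate 2, 3 and 4.

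**Figure D3:**
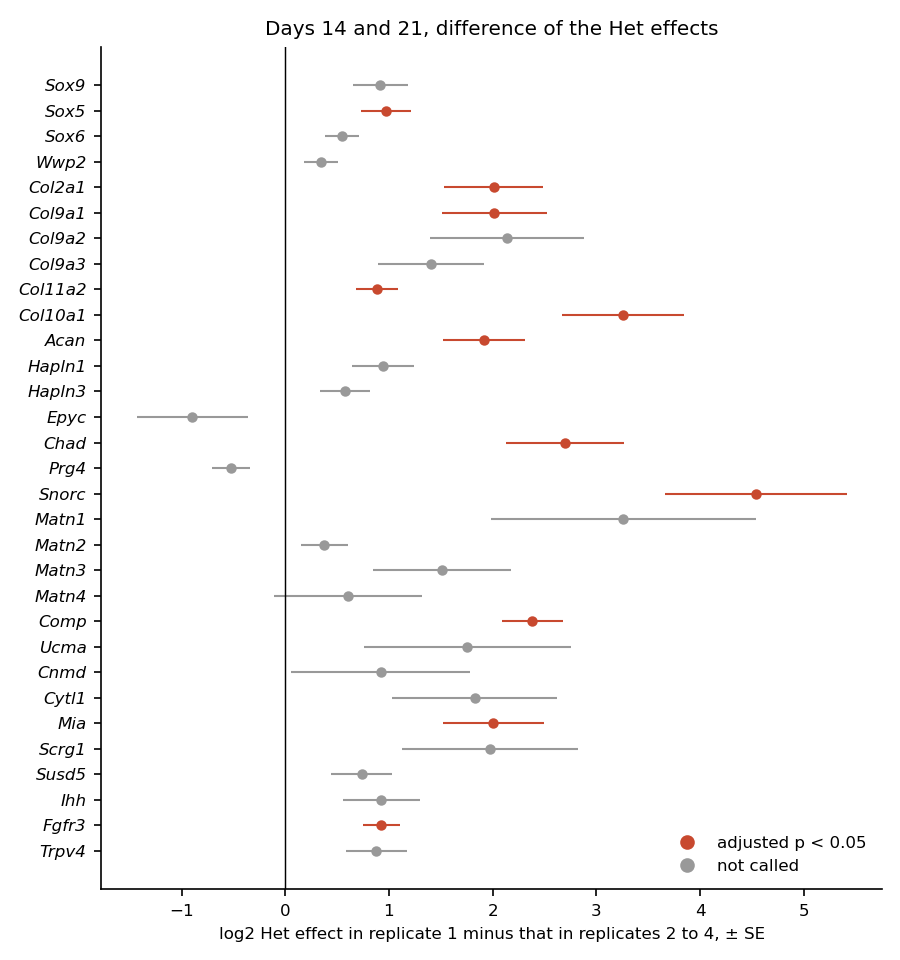
Log2 Het effect (Het against WT, days 14 and 21) in replicate 1 minus that in replicates 2 to 4 for each cartilage gene, with SE bars, in red where the adjusted p was under 0.05. The points lie above 0 for 29 of 31 genes, up to 4.54 for Snorc, and below 0 for Epyc and Prg4.

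At day 8, cartilage genes were again lower in Het in replicates 2 to 4 but none was called over all 8 libraries. The edgeR test called 0 of 31 members and 0.0% of the 18222 genes higher and 0.0% lower, while 15 members and 1820 genes had an unadjusted p under 0.05, and DESeq2's Wald test called 6 members lower and 1 higher. With the replicate block, Epyc and Ihh were called lower and Prg4 higher (0.62% of all genes higher and 0.999% lower). Within replicates 2 to 4, 17 members were called lower and 1, Prg4, higher, against 14.5% and 4.58% of all genes. Leaving out Het replicate 1 alone gave 21 called lower and 1 higher. Shares of all genes are not given for the DESeq2 and leave-out fits, so those counts have no background beside them. Among the members called within replicates 2 to 4 at day 8, the largest differences were those of Matn1 (−3.75 ± 0.74, adjusted p = 0.0361) and Ucma (−2.98 ± 0.45, adjusted p = 0.0181). The median Het to WT ratio of the 31 genes at day 8 was 0.302 in replicates 2 to 4, 0.925 in replicate 1, 0.264 in replicates 2 and 3, and 0.476 in replicate 4. Replicate 4 of Het was thus between the extremes: Acan stood there at 964, against 281 and 362 in Het replicates 2 and 3.

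Whether the Het effect changed between day 8 and the later days was tested as a difference of effects. Over all libraries the edgeR test called 0 members (0.147% of all genes higher and 0.00489% lower), 0 members had an unadjusted p under 0.05 and DESeq2's Wald test called 0. Within replicates 2 to 4, Col10a1 was called lower, against 3.94% of all genes called higher and 0.804% lower. Its Het to WT ratio in these replicates was 0.647 at day 8, 0.139 at day 14 and 0.159 at day 21, and the log2 difference between effects was −2.13 ± 0.26 (SE, adjusted p = 0.00024).

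With time in culture, more cartilage genes were called lower than higher over both genotypes, though not in Het alone. From day 8 to days 14 and 21, over both genotypes, 14 of the 31 genes fell and 5 rose, against 17.4% of all genes called lower and 40.8% called higher. The housekeeping scale puts the median gene at 0.158 on the log2 scale in this comparison, and TMM scaling at −0.021, where 18 members were called lower and 5 higher. The share of all genes called under TMM is not given here. In WT alone 17 members fell and 7 rose (16.7% and 37.5% of all genes), and in Het alone 2 fell and 3 rose (9.9% and 30.3%). The summed RQ of all members had medians of 34297, 20961 and 14868 in WT at days 8, 14 and 21. In Het they were 15750, 6973 and 6400. Without Col2a1 the medians were 13889, 13307 and 11120.4 in WT and 5283, 5162 and 5387 in Het. Over all libraries no member was called for a change of the Het effect between day 8 and the later days. The counts in WT alone and in Het alone therefore do not show a difference between genotypes. The genes that fell included Ucma (−2.54 ± 0.56, adjusted p = 0.000621), Matn3 (−2.40 ± 0.55, adjusted p = 0.000854), Col2a1 (−1.82 ± 0.49, adjusted p = 0.00356) and Sox9 (−1.26 ± 0.19, adjusted p = 6.34e-06). Those that rose were Ihh (3.23 ± 0.30, adjusted p = 9.28e-09), Chad (2.97 ± 0.59, adjusted p = 0.000212), Comp (1.24 ± 0.46, adjusted p = 0.0255), Col11a2 (1.16 ± 0.19, adjusted p = 2.04e-05) and Susd5 (1.13 ± 0.31, adjusted p = 0.00384). Ihh went from an RQ of 0.686 to 6.82 in WT at day 8 to 27.6 to 35.8 at days 14 and 21, without overlap, and its lowest day 8 levels were those of replicate 1 in both genotypes.

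From day 14 to day 21, 6 genes fell over all libraries, Hapln1, Epyc, Matn1, Matn4, Ucma and Cnmd, and none rose (13.3% of all genes higher and 5.85% lower). With the replicate block 15 fell and 2 rose, Chad and Comp, against 7.21% and 15.8% of all genes. Matn4 was no longer called with the block (−0.92 ± 0.33, adjusted p = 0.0664), and within replicates 2 to 4 neither Matn4 (adjusted p = 0.271) nor Cnmd (adjusted p = 0.0607) was called. Matn1 fell by the most, with a log2 difference of −4.44 ± 1.25 (adjusted p = 0.0215): its RQ in WT replicates 1 to 4 went from 427, 23.1, 14.4 and 157 at day 14 to 12.1, 1.84, 2.96 and 5.75 at day 21. WT libraries of these days did not overlap, and each Het replicate was lower at day 21 than at day 14.

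**Figure D4:**
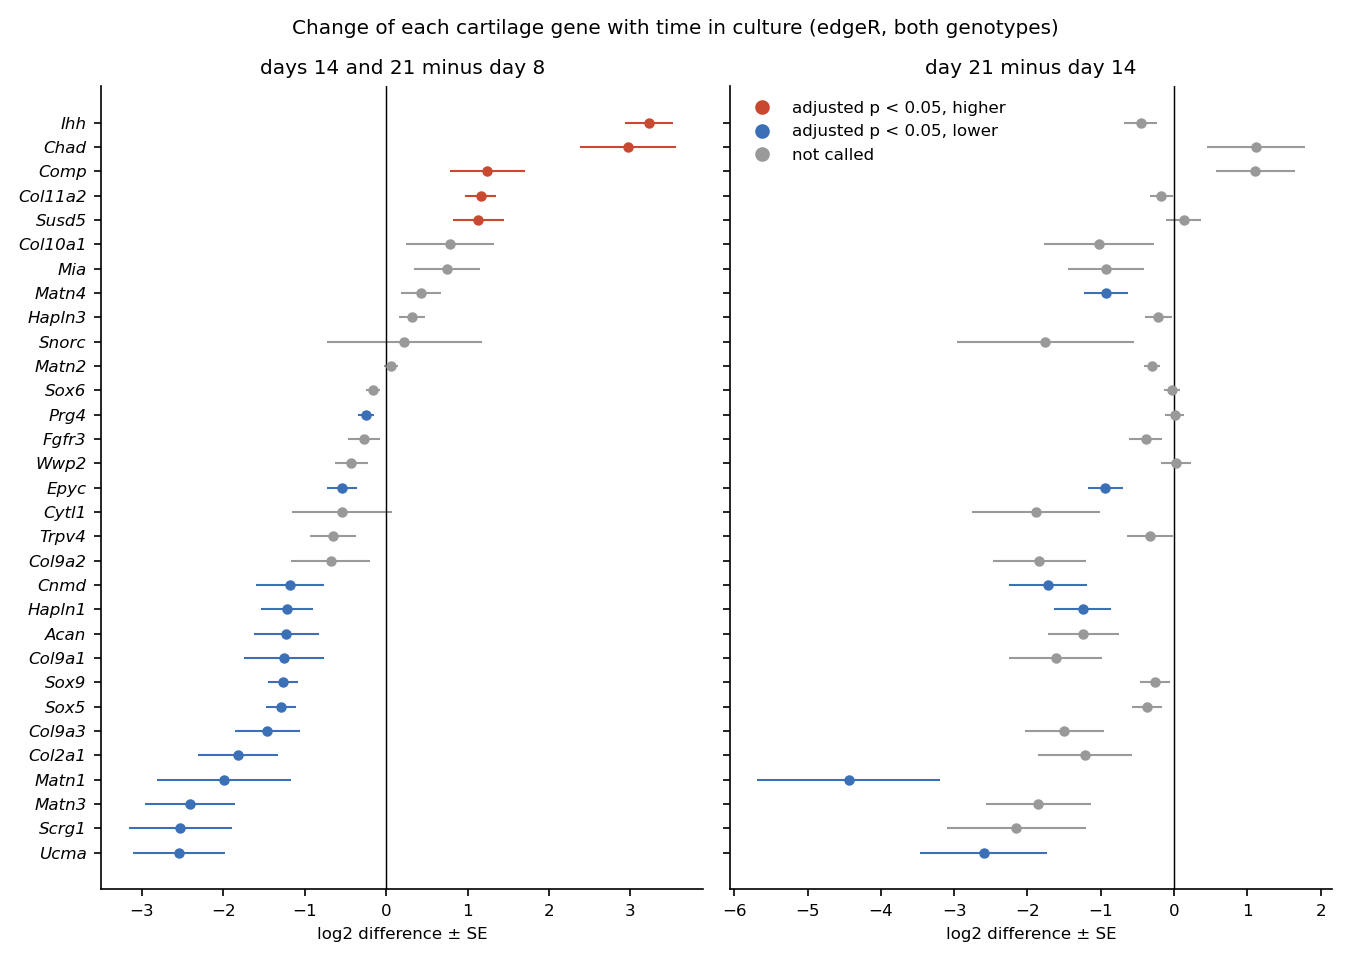
Log2 difference with SE bars for each cartilage gene, both genotypes fitted together, of days 14 and 21 against day 8 on the left and of day 21 against day 14 on the right, in red for genes called higher, blue for lower and grey for neither. The left panel runs from 3.23 for Ihh to −2.54 for Ucma, and in the right panel Matn1 lies lowest at −4.44.

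With the 6 groups fitted together, most cartilage genes had higher levels in replicate 1 than in replicates 2 to 4. This fit holds 1 replicate 1 term for both genotypes, and more members were called higher in Het alone than in WT alone. Of the 31 genes, 26 were called higher in replicate 1 and 0 lower, against 32.9% of all genes higher and 6.72% lower, and 26 had an unadjusted p under 0.05. The largest log2 differences were those of Snorc (3.61 ± 0.66, adjusted p = 0.000216), Matn1 (3.24 ± 0.65, adjusted p = 0.000554) and Scrg1 (2.29 ± 0.43, adjusted p = 0.000264). Epyc, Prg4, Matn2, Matn4 and Ihh were not called. The housekeeping scale puts the median gene at 0.11 on the log2 scale here, and TMM scaling, at −0.032, called 24 members higher and 2 lower. No share of all genes is given for that scaling. In WT alone 12 members were called higher and 1 lower, against 28.8% and 6.18% of all genes. In Het alone the calls were 26 higher and 0 lower, against 17.2% and 5.84%.

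Other genes of cartilage were also called lower more often than higher in Het. Of 40 tested among 43 further cartilage genes, 8 were called lower in Het at days 14 and 21 and 2 higher (8.75% and 7.19% of all genes), with a median log2 difference of −0.34, and the calls were 19 lower and 4 higher with the replicate block (14.1% and 9.29% of all genes) and 25 lower and 6 higher of 41 within replicates 2 to 4 (22.1% and 17.1%). Named by size among those called over all libraries, the lower ones were led by Otor (−0.76 ± 0.22), Col11a1, the partner chain of Col11a2 (−0.67 ± 0.16), and Ptch1, the hedgehog receptor and target (−0.65 ± 0.17), and the higher ones were Pax9 (1.61 ± 0.27) and Arid5a (0.36 ± 0.062). At day 8, 0 of 39 were called by edgeR over all libraries, with 15 at an unadjusted p under 0.05, and within replicates 2 to 4 the calls were 18 lower and 3 higher of 40 (14.5% and 4.58% of all genes). Of the 8 genes that hypertrophic cartilage shares with OBs, Runx2 was called lower at days 14 and 21 (−0.39 ± 0.10, adjusted p = 0.0184), with 4 of 8 called lower with the block and 5 within replicates 2 to 4, and all 8 were called higher at days 14 and 21 than at day 8, led by Ibsp (5.33), Mef2c (2.89) and Alpl (2.42 on the log2 scale). Between those times, 15 of the 40 further cartilage genes rose, led by Smpd3 (3.60), Gli1 (2.62) and Gdf5, a joint morphogen (2.44), and 9 fell, led by Bmpr1b (−1.73), Csgalnact1 (−1.41) and Prkg2 (−1.12). These counts are near the shares of all genes in that comparison, 40.8% higher and 17.4% lower.

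Markers of other cell types moved with the genotypes as well, and their part in the cartilage result was not tested. Over days 14 and 21 the summed RQ of the 8 OB markers was 101184 to 186504 in WT and 95880 to 149909 in Het, and 4 of 8 were called lower in Het (Bglap, Ifitm5, Runx2 and Sp7). The 5 macrophage markers summed to 1103 to 5615 in WT and 2417 to 14848 in Het, and 4 of 5 were called higher. Among all genes tested in that comparison, 8.75% were called lower and 7.19% higher. In replicate 1 the macrophage sum at days 14 and 21 was 3574 to 4774 in WT and 2417 to 6239 in Het, and in replicates 2 to 4 it was 1103 to 5615 in WT and 5424 to 14848 in Het. The sum of the 7 genes listed for Schwann cells and other glia was 101 to 324 in WT and 33.1 to 255 in Het. S100b, which chondrocytes express too, ran from 26.3 to 305 over the 24 libraries, and the defining glial markers Sox10 and Foxd3 had medians of 2 and 0 counts. The tendon list summed to 8741 to 11655 in WT and 6763 to 11332 in Het, and the fibroblast list to 41.6 to 63.4 and 26.3 to 93.3, with 1 of 7 and 0 of 4 tested genes called. Smooth muscle markers summed to 3798 to 7252 and 4146 to 7773 (1 of 5 called, Myh11, higher), endothelial markers to 1.85 to 3.69 and 3.47 to 5.13 (1 of 3, Kdr, higher), and skeletal muscle markers to 3.23 to 8.59 and 3.07 to 7.82 (0 of 2 called), with Myod1, Myog and Ckm at 0 counts in the median library.

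**Figure D5:**
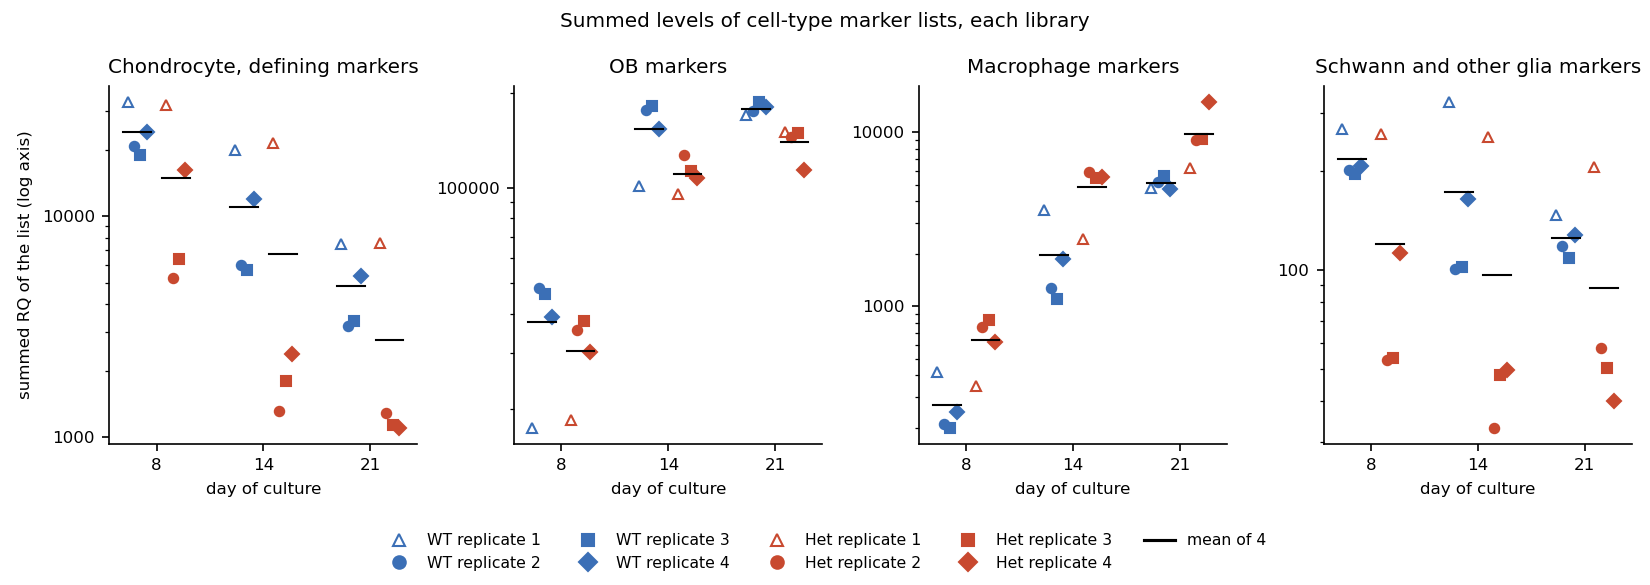
Summed RQ (log axis) of the marker lists of chondrocytes (6 defining genes), OBs, macrophages, and Schwann cells and other glia by day, with WT in blue, Het in red, replicate 1 as open triangles and the mean of 4 libraries as a black line. The chondrocyte sum of Het replicates 2 to 4 at days 14 and 21 lies at 1106 to 2373, below the 3194 to 20007 of WT, while that of Het replicate 1 lies at 7531 and 21373.

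As a description of patterns, the genes outside the 31 whose log2 level followed Acan most closely over the 24 libraries were Gm26633 (Pearson r = 0.991), Colgalt2 (0.981), Ccn6 (0.956), Scin (0.952) and Peg3 (0.946), with r of 0.945 to 0.988 over the 18 libraries of replicates 2 to 4. Gm26633 is an antisense transcript on chr7:79018053-79053323 whose start lies 159 bases from the start of Acan. For Col2a1 they were Ncmap (0.981), Dnajc22 (0.974), Krt87 (0.971), Meltf (0.968) and Sh3tc2 (0.967). Among the 31, Col9a1 was closest to Acan (r = 0.977) and Col9a3 to Col2a1 (r = 0.98). Prg4 had a negative r with both (−0.4 with Acan, −0.25 with Col2a1). Ihh had −0.39 with Col2a1 but only −0.18 with Acan (−0.0788 in replicates 2 to 4). Several members followed Col2a1 little, such as Chad (r = −0.00554) and Comp (0.281). Of the members called lower in Het late in culture over all libraries, Col11a2 (0.0521), Susd5 (0.138) and Hapln3 (0.481) followed Col2a1 less than Sox9 (0.939) and Sox6 (0.74) did. The libraries share day, genotype and preparation, so these values carry no p.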

How the data were processed

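RNA of 24 wells was sequenced from TruSeq libraries. The authors deposited raw counts, 1 file per library with a count per gene, the gene's exon length and its symbol. The submitters' processing notes name cutadapt 2.5, STAR 2.73a, Subread, featureCounts 1.6.4 and mm10, while annotation, strand rule and handling of multiply mapped reads are not given in the sources used here. Counts were not based on molecular identifiers, per the study's methods, and the depth covers counting error only. Of the 55335 identifiers, 54587 were found in GENCODE M21 (GRCm38), where exon lengths equalled the deposited lengths for all 54587, and positions come from there.

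Counts were tested with edgeR 4.0.16 (glmQLFit with robust settings and glmQLFTest), the geometric mean of Actg1, Actb, Mrfap1 and Sdha serving as library size, filterByExpr on low counts, and Benjamini-Hochberg adjustment over all genes tested with a threshold of 0.05. The SE is the log2 difference divided by the square root of F. Days 14 and 21 were fitted together with day as a covariate (16 libraries), day 8 alone (8), and time, replicate 1 and differences of effects over group means. DESeq2 1.42.0 was an alternative. The steps were checked on simulated counts. R 4.3.3, Python 3.11.15 and matplotlib 3.10.9 were used.

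The members, the lists and the rule for named genes were chosen with earlier results of these data known. The rule gave library values for Sox9, Sox5, Sox6, Col2a1, Acan, Col9a1, Col10a1, Comp, Hapln1, Matn2, Prg4 and Fgfr3 and for any other member called between genotypes, named further cartilage genes by size of change (at most 3 per direction), and took the 5 closest patterns among genes whose mean count reached 50. Alternatives were other scalings, filters and tests, single days, libraries left out, a replicate block and replicate 1 as a covariate.

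Same-numbered WT and Het libraries of a day deviated from their group means together in all 12 pairs (r = 0.261 to 0.753, median 0.471, against a median of −0.098 for different numbers), so the numbers were taken to pair the samples. The negative values for different numbers were all those of pairs with replicate 1. Replicates 2 and 3 were hardly told apart. At days 8, 14 and 21, WT replicate 2 had r of 0.486, 0.261 and 0.543 with Het replicate 2. With Het replicate 3 it had 0.395, 0.331 and 0.512. The labels only number the replicates, and within replicates 2 to 4 alone r was 0.0065 to 0.299 (median 0.128) for same numbers. No pair of the 36 replicate pairs was alike within sampling noise (smallest chi-square per degree of freedom 4.78).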

Additional observations from a re-analysis of the deposited data

Results flagged for a closer look

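Among 90 groups of 4 libraries tested for a library far from the others (15 genes, 6 groups each), 15 had one, and chance flags about 5% of groups. Many of these genes move together, and most flags come from the Het replicate 1 libraries of days 14 and 21. The groups are thus not independent, and the count cannot be weighed against that share. In all 15 it was replicate 1 and the highest library. In Het at day 14 these were Col2a1 (RQ 18980), Acan (1776), Col9a1 (1735), Col10a1 (281.9), Comp (2847), Hapln1 (337) and Hapln3 (8.61). In Het at day 21 they were Col2a1 (6805), Acan (584), Col9a1 (498), Col10a1 (56.5), Comp (5291) and Hapln1 (188). At day 8 they were Matn2 in Het (272) and Col10a1 in WT (44.3).

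The Het effect at days 14 and 21 was called different between replicate 1 and replicates 2 to 4 for 11 members by edgeR, with log2 differences of 0.97 for Sox5, 2.01 for Col2a1, 2.02 for Col9a1, 0.89 for Col11a2, 3.26 for Col10a1, 1.91 for Acan, 2.70 for Chad, 4.54 for Snorc, 2.38 for Comp, 2.01 for Mia and 0.93 for Fgfr3. Among all genes tested, 1.9% were called in that direction and 2.58% in the other. The comparison was chosen after the values had been seen, and fewer members were called without replicate 3 or without replicate 4. Replicate 1 was also shallower than the others, and the part of depth in this difference was not tested. The labels only number the replicates.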

How the results depend on the processing

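The number of cartilage genes called between genotypes depended on the treatment of replicate 1. At days 14 and 21, 5 genes were called, and the number was 9 with DESeq2's Wald test, 3 without a low-count filter, 8 with genes kept at a mean count of 50 or more, 24 with the replicate block, 23 with replicate 1 as a covariate, 0 at day 14 alone, 1 at day 21 alone and 9 by a rule of another kind, a ratio of mean RQ past a minimum change with an exact permutation p under 0.05 that was not adjusted. Leaving out replicates or single libraries gave 0 to 27, and 3 without any of WT replicate 4 of day 14 or 21, Het replicate 4 of day 14 or 21, or Het replicate 2 or 3 of day 21. At day 8, where 0 were called, DESeq2 called 7, the block 3 and the covariate 6, and leave-outs gave 0 to 22, with 4 without WT replicate 1. For the change of the Het effect with time, leave-outs gave 0 to 1. Against day 8, 19 genes changed at days 14 and 21, with 12 to 25 in leave-outs (12 without replicate 4) and 5 in Het alone, where 3 were higher and 2 lower. From day 14 to day 21, 6 changed, with 14 by DESeq2, 1 without a filter, 17 with the block, 17 with the covariate, 11 in WT alone, 0 in Het alone and 0 to 17 in leave-outs. Between replicate 1 and the others, 26 differed, 13 in WT alone, where the log2 difference turned to −0.034 for Sox6 and −0.16 for Col11a2. The difference of effects gave 11, and 4 to 12 in leave-outs. The block changed no other call count between genotypes or days by over 1.5 times. Most of these alternative fits have no share of all genes beside their counts. The causes were not tested. Counting depth limits the lowest members, such as Scrg1 and Snorc in Het replicates 2 to 4.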
